A study of Mus musculus with 12 samples.

Results

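The mouse genes for integrin subunits and laminin chains were examined as 1 set, because they encode the receptors and the ligands by which cells hold on to matrix. Members were the genes with a symbol of the form Itga, Itgb, Lama, Lamb or Lamc followed by a subunit number or letter, and 36 of the 37583 gene identifiers counted are described here: 18 integrin alpha subunits, 8 integrin beta subunits and 10 laminin chains. Poly-A RNA-seq had been made from 12 libraries of mouse cells of strain 129SV/Jae/C57BL6J, 2 replicates in each of 6 groups. MEF were embryonic fibroblasts kept in MEF medium, and iPSC were induced pluripotent stem cells kept in ES medium. The other groups were sorted by flow cytometry after trypsin from cultures that had dox and AA in ES medium, and every sorted cell carried SSEA1, a carbohydrate epitope of mouse pluripotent cells. On day 3, d3_Ineff cells were CD73-Sca1+ and d3_Eff cells CD73+Sca1-. On day 6, d6_Ineff cells were EpCAM-Sca1+ and d6_Eff cells EpCAM+Sca1-. The labels do not name a reprogramming cassette and do not state if the replicates of a group came from separate cultures or animals, so p-values measure only the spread between these samples. Medium or its additives differed between MEF, iPSC and the sorted cultures, and in comparisons between these the effects of medium and of cell state cannot be told apart. Sorting after trypsin is stated for the sorted groups alone. Against MEF or iPSC, its effects cannot be told apart from those of cell state either. The sorted groups had the same medium as each other, but their gates differed between the days.

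An integrin is a pair of 1 alpha and 1 beta subunit that spans the membrane and ties the matrix outside to the actin or keratin cytoskeleton inside. The alpha subunit largely sets the ligand: some bind collagens, some laminins, some the RGD peptide motif of fibronectin and vitronectin, and some counter-receptors on other cells. Laminins are cross-shaped trimers of 1 alpha, 1 beta and 1 gamma chain and form the sheet of basement membranes, the first matrix that an embryo makes. Fibroblasts are known for the collagen and fibronectin receptors, stratified epithelia for the hemidesmosome integrin of the Itga6 and Itgb4 products and its laminin with the Lama3 and Lamb3 chains, and mouse embryonic stem cells for the Itga6 product and laminins with the Lama1 or Lama5 chain. Members were sorted into these classes from such general knowledge, with earlier results of these data known. Transcripts were measured here, not proteins or assembled pairs and trimers. In bulk RNA, fewer cells of a type and less RNA per cell cannot be told apart.

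The promoters of 6 integrin genes show the DNA just before the start of members that moved in different ways. Mean levels of Itgav, Itgb1, Itgb5 and Itga11 were highest in MEF, those of Itga4 on day 3 and those of Itgb7 in iPSC. For Itgb5, MEF replicate 2 lay under both d6_Ineff libraries. Each window holds the 250 bases before the start in the RefSeq table of build GRCm38.p6, written 5′ to 3′ on the strand of the gene. Capitals mark matches on either strand to 5 motifs: AP-1 (TGANTCA), E-box (CAGGTG), TEAD (GGAATG), GC box (GGGCGG) and octamer (ATGCAAAT).
Itgav (chr2:83724147-83724396, + strand): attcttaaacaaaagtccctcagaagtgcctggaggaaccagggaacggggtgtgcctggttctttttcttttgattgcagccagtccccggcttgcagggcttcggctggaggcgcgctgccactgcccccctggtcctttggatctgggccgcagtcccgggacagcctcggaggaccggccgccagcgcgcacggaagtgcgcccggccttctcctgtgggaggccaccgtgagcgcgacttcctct
Itgb1 (chr8:128685404-128685653, + strand): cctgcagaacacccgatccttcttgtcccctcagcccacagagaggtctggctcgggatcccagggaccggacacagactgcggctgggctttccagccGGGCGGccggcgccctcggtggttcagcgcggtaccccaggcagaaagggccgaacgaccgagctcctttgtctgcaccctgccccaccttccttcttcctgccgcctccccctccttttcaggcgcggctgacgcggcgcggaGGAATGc
Itgb5 (chr16:33829415-33829664, + strand): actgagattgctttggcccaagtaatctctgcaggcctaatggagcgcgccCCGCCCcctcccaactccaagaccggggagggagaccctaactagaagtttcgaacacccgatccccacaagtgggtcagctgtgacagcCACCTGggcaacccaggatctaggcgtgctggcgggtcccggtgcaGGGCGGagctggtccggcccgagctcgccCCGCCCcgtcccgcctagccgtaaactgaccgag
Itga11 (chr9:62677605-62677854, + strand): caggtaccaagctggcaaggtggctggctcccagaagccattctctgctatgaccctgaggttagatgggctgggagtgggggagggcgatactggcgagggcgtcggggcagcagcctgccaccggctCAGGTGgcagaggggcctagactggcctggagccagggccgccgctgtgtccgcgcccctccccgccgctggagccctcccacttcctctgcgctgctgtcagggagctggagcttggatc
Itga4 (chr2:79255176-79255425, + strand): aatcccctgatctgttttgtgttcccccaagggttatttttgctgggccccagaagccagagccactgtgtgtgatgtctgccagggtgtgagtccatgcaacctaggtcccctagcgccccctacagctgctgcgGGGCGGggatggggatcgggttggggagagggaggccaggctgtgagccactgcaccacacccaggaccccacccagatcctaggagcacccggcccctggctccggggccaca
Itgb7 (chr15:102231936-102232185, - strand): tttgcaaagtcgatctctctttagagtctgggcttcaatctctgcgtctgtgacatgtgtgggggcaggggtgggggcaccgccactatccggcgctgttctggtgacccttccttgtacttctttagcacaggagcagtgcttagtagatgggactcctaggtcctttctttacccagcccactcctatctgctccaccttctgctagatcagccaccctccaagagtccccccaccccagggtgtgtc
Itgb5 held 3 GC boxes and 1 E-box, Itgb1 held 1 GC box and a TEAD match ending near the start, Itga4 held 1 GC box and Itga11 held 1 E-box. No match was found in the windows of Itgav and Itgb7. The 23 members with an entry in the table were counted by 1 window each, that of lowest coordinate. Of these windows, 8 held a GC box, 6 an E-box, 2 a TEAD match, 1 (Itgax) an AP-1 match and none the octamer. The other windows of Itga3 and Lamb3, left out of this count, each held an E-box, and that of Lamb3 a TEAD match. Over all 32536 windows of that length, 33.0% held a GC box, 17.3% the E-box, 12.6% the TEAD letters, 6.73% the AP-1 letters and 1.62% the octamer. A match is a description of the letters only.

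Levels are in CPM, each gene's count relative to all counts in genes of its library, after TMM scaling, a correction for library composition. Gene counts ran from 9284060 in MEF replicate 2 to 22763548 in d6_Ineff replicate 2. MEF replicate 2 stood apart: 47.15% of its reads fell outside genes, against 24.15% in d6_Eff replicate 2 and 5.101% to 11.7% in the rest. It was also lower than MEF replicate 1 in laminin genes by a median of 2.03 on the log2 scale over the 10 laminins and by 0.72 over 22 tested integrins, against 0.14 over all tested genes. Protein-coding genes of 5 CPM or more with over 10 kb of exon were 0.96 lower in that library and those under 2 kb were 0.63 higher. Laminin medians of replicate 2 over replicate 1 lay between -0.39 and 0.23 in the other 5 groups. Levels of laminins in MEF were thus known poorly, and comparisons of members with MEF are given with each MEF library left out where that changes the call or its direction. Calls of partner and marker genes against MEF were not checked in that way. Summed fibroblast markers ran from 16473 and 44387 CPM in the MEF libraries to 117 and 118 in iPSC, and 7 pluripotency markers from 1.26 and 1.96 to 4009 and 4045, the order that the labels give.

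**Figure D1:**
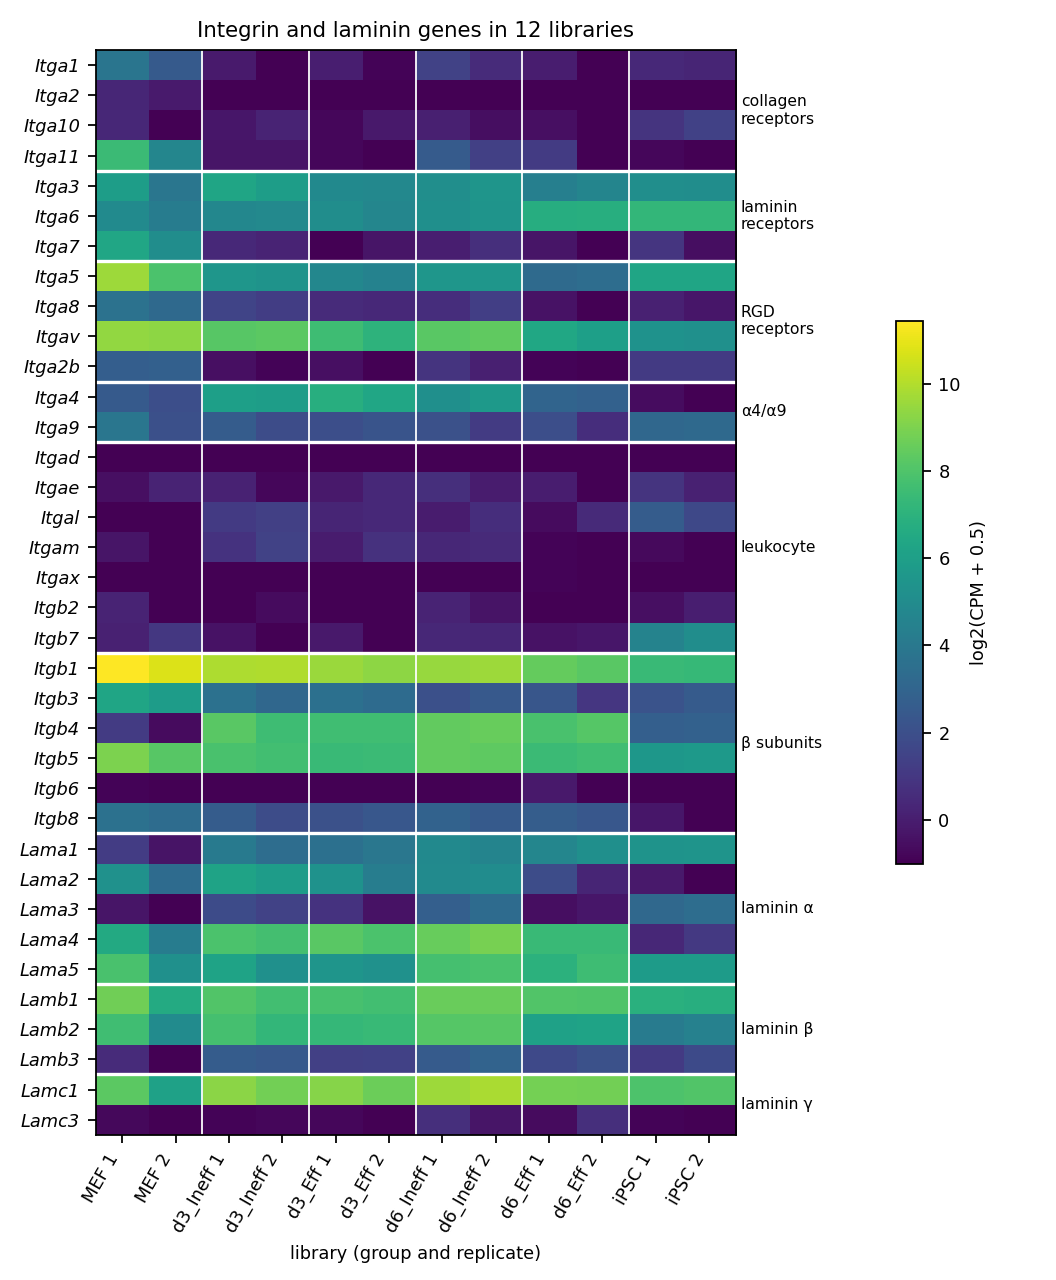
Levels of all 36 members in the 12 libraries as log2(CPM + 0.5), with rows grouped by the ligand or chain of the member and columns by group and replicate. Colours compare libraries along a row and not genes, whose lengths differ; Itgb4 is darker in MEF and iPSC than in the 4 sorted groups, and Itgb7 is brightest in iPSC.

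The first comparison, iPSC against MEF, spans the course from end to end. Of the 32 members tested (Itga2, Itgad, Itgax and Itgb6 were too low), 7 were higher and 14 lower in iPSC by edgeR's quasi-likelihood test at a Benjamini-Hochberg adjusted p under 0.05. Over all 16240 genes tested, 52.7% were called, 26.0% higher and 26.7% lower. Together, 21 of the 32 members were called, a share somewhat above that of all genes, and the difference was not tested. The split of the members leaned to the lower side. The share of all genes was 51.3% without MEF replicate 1 and 50.7% without MEF replicate 2. All 10 members of the fibroblast class were lower, with a median log2 fold change of -3.99 against 0.04 over all genes. Of the 5 epithelial members tested, 3 were higher and 1 lower, and of the 5 early embryo and pluripotent members 2 were higher and none lower. Leukocyte and platelet members counted 2 higher and none lower of 6 tested, and those of broad or other expression 0 higher and 3 lower of 6. The classes came from general knowledge of these genes in fibroblasts, and earlier results of these data were known when they were chosen. The direction of the fibroblast class is thus no independent check.

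**Figure D2:**
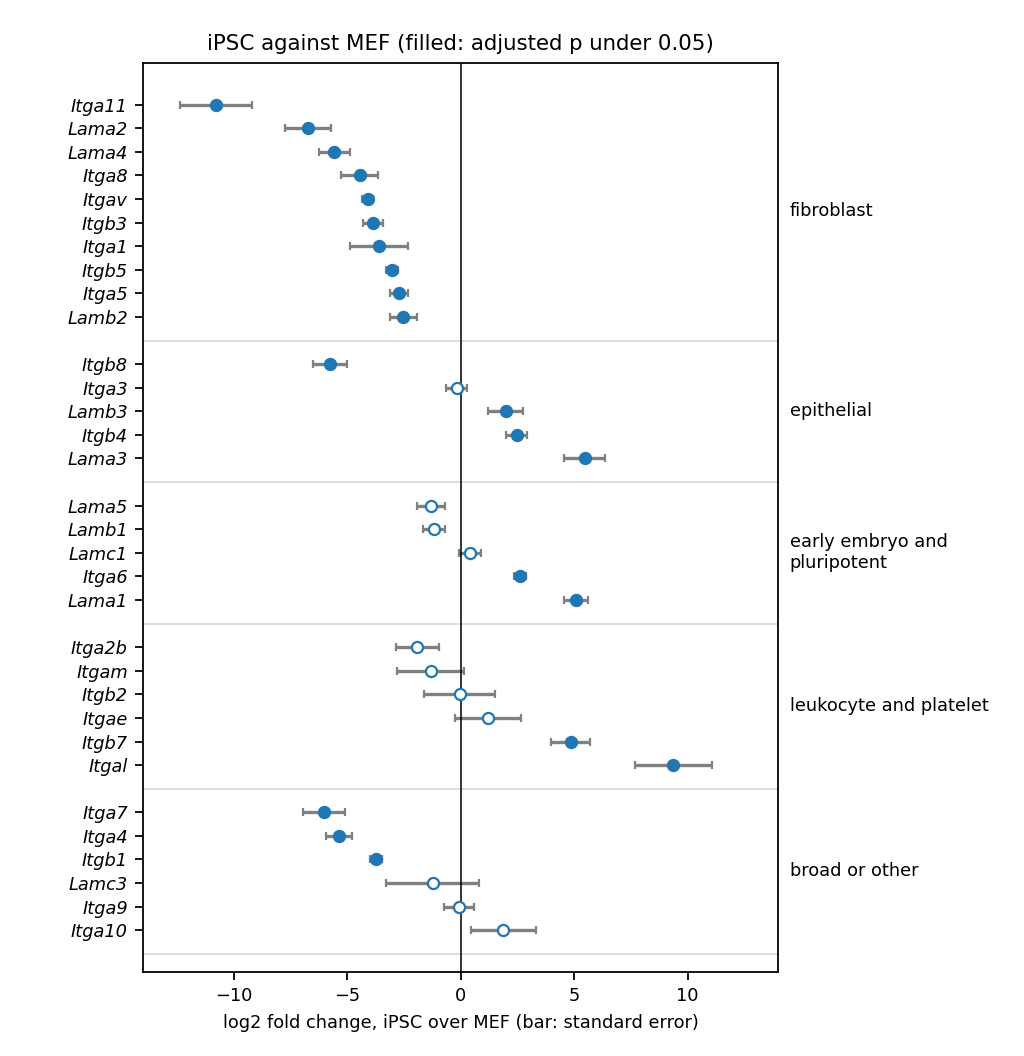
Log2 fold change of iPSC over MEF for the 32 tested members (points, with the standard error as bars), grouped by class, filled where adjusted p was under 0.05. The 10 fibroblast members lie left of 0, and Itgb7, Itgal, Lama1 and Lama3 lie farthest right; fitted values of genes at or near 0 counts in 1 group, such as Itga11 and Itgal, depend on the prior count.

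Of the 4 RGD receptor alpha subunits, 3 fell from MEF to iPSC. Itgav, the vitronectin receptor alpha subunit, stood at 672 and 638 CPM in MEF, at 294 and 312 in d3_Ineff, at 189 and 129 in d3_Eff, at 308 and 341 in d6_Ineff, at 83.7 and 63.8 in d6_Eff and at 39.3 and 36.7 in iPSC. MEF lay above and iPSC below every other library, d3_Ineff and d6_Ineff overlapped, and d3_Eff and d6_Eff lay between those and iPSC. From MEF to iPSC Itgav fell 17.2-fold (log2 fold change -4.11 ± 0.24, SE, adjusted p = 2.05e-07). Itga5, the fibronectin receptor alpha subunit, stood at 791 and 241 CPM in MEF, at 46.2 and 41.2 in d3_Ineff, at 26.1 and 22.6 in d3_Eff, at 45.3 and 45 in d6_Ineff, at 9.49 and 10.3 in d6_Eff and at 77.4 and 79.3 in iPSC. It was lowest in d6_Eff and not in iPSC. It fell 6.59-fold from MEF to iPSC (log2 fold change -2.72 ± 0.41, adjusted p = 2.24e-04) and rose 7.93-fold from d6_Eff to iPSC (log2 fold change 2.99 ± 0.43, adjusted p = 3.26e-04). Itga8, a receptor for nephronectin and fibronectin, stood at 12.3 and 8.93 CPM in MEF, at 2.41 and 1.86 in d3_Ineff, at 0.954 and 0.832 in d3_Eff, at 1.04 and 1.99 in d6_Ineff, at 0.267 and 0 in d6_Eff and at 0.602 and 0.329 in iPSC (iPSC against MEF log2 fold change -4.46 ± 0.82, adjusted p = 8.10e-04). Itga2b, the platelet fibrinogen receptor subunit, stood at 6.04 and 6.56 CPM in MEF, at 0.219 and 0.0453 in d3_Ineff, at 0.217 and 0 in d3_Eff, at 1.33 and 0.558 in d6_Ineff, at 0.0445 and 0 in d6_Eff and at 1.68 and 1.65 in iPSC. MEF lay above the rest, and iPSC against MEF was not called (adjusted p = 0.109). Platelet markers summed to at most 2.29 CPM in any library, and Gp9 and Gp6 were at 0 counts in all 6 groups.

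Among the 4 collagen receptor subunits, Itga11 and Itga1 fell from MEF to iPSC and none rose. Itga11, a receptor for fibrillar collagen on fibroblasts, stood at 179 and 25.8 CPM in MEF, at 0.306 and 0.317 in d3_Ineff, at 0.0867 and 0 in d3_Eff, at 5.45 and 2.03 in d6_Ineff, at 1.74 and 0 in d6_Eff and at 0.086 and 0 in iPSC. Its MEF libraries differed widely from each other, yet the lower of them lay above all 10 other libraries. It was called lower in iPSC (adjusted p = 1.83e-04), with 2 counts in both iPSC libraries together and so no fold. Itga1, which prefers basement membrane collagen, stood at 13.9 and 5.17 CPM in MEF, at 0.437 and 0 in d3_Ineff, at 0.52 and 0.052 in d3_Eff, at 2.2 and 0.957 in d6_Ineff, at 0.49 and 0 in d6_Eff and at 0.86 and 0.725 in iPSC. Both MEF libraries lay above all others (log2 fold change -3.59 ± 1.28, adjusted p = 0.0355). Without MEF replicate 1 the adjusted p for Itga1 was 0.158, and without iPSC replicate 1 or 2 it was 0.136 or 0.149. Itga2 reached a mean of 0.597 CPM in MEF with no counts elsewhere, and Itga10 a highest mean of 1.72 CPM, in iPSC. The exons of Itga10 share 33.5% of their bases with another gene model on the same strand, so its low values are uncertain.

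The laminin receptors did not share a direction. Itga6, the alpha subunit that pairs with the Itgb1 or Itgb4 product, stood at 30.5 and 17.9 CPM in MEF, at 26.6 and 27.9 in d3_Ineff, at 33.1 and 25.2 in d3_Eff, at 36.4 and 43.4 in d6_Ineff, at 105 and 109 in d6_Eff and at 148 and 150.0 in iPSC. The first 3 groups in this order overlapped, and both d6_Eff and iPSC lay above all the rest. It rose 6.16-fold from MEF to iPSC (log2 fold change 2.61 ± 0.26, adjusted p = 9.26e-06). Itga7, the laminin receptor subunit of muscle, went the other way, and stood at 80.1 and 33.2 CPM in MEF, at 0.831 and 0.679 in d3_Ineff, at 0 and 0.312 in d3_Eff, at 0.521 and 1.08 in d6_Ineff, at 0.312 and 0 in d6_Eff and at 1.42 and 0.198 in iPSC. All libraries outside MEF were near 0, and in iPSC it was 70.1-fold lower (log2 fold change -6.03 ± 0.93, adjusted p = 2.45e-04). Itga3, a partner of the Itgb1 product in epithelia and stem cells, stood at 61 and 14.4 CPM in MEF, at 77.7 and 61 in d3_Ineff, at 29.5 and 27.1 in d3_Eff, at 35.1 and 44.8 in d6_Ineff, at 20.4 and 24.6 in d6_Eff and at 34.4 and 33.1 in iPSC. Its MEF libraries enclosed the iPSC values, and it was not called (log2 fold change -0.18 ± 0.47, adjusted p = 0.773). Its direction turned with 1 library: without MEF replicate 1 the log2 fold change was 1.24 (adjusted p = 5.84e-04), and without MEF replicate 2 it was -0.91 (adjusted p = 0.00217).

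Itga4, whose product binds Vcam1 and fibronectin, was highest on day 3. It stood at 5.27 and 3.49 CPM in MEF, at 64.2 and 60.7 in d3_Ineff, at 110.4 and 82 in d3_Eff, at 35.5 and 51.5 in d6_Ineff, at 7.48 and 6.7 in d6_Eff and at 0.172 and 0 in iPSC. Both day 3 groups and d6_Ineff lay far above MEF, d6_Eff lay just above MEF, and iPSC was near 0. It fell 50.9-fold from MEF to iPSC (log2 fold change -5.37 ± 0.57, adjusted p = 1.51e-05). Of its exon bases, 8.04% are shared with Cerkl on the opposite strand, which had at most 1.175 CPM in any library. Itga9, a receptor for tenascin and Vcam1, stood at 14.4 and 3.63 CPM in MEF, at 5.68 and 3.26 in d3_Ineff, at 3.51 and 4.11 in d3_Eff, at 3.71 and 1.72 in d6_Ineff, at 3.47 and 1.06 in d6_Eff and at 8.42 and 8.96 in iPSC. MEF and iPSC overlapped and were not called (adjusted p = 0.93). The ligand of both, Vcam1, stood at 138 and 127 CPM in MEF, at 58 and 67.8 in d3_Ineff, at 62.4 and 42.2 in d3_Eff, at 32.2 and 33 in d6_Ineff, at 6.15 and 3 in d6_Eff and at 0 and 0 in iPSC, with its highest values in MEF.

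Among leukocyte integrins, Itgb7, which pairs with the Itga4 or Itgae product on lymphocytes, stood at 0.619 and 1.54 CPM in MEF, at 0.262 and 0 in d3_Ineff, at 0.39 and 0 in d3_Eff, at 0.811 and 0.758 in d6_Ineff, at 0.267 and 0.352 in d6_Eff and at 23.1 and 33.7 in iPSC. Every iPSC library lay far above all 10 others. It rose 26.4-fold from MEF (log2 fold change 4.84 ± 0.88, adjusted p = 8.03e-04) and 91.6-fold from d6_Eff (log2 fold change 6.50 ± 0.96, adjusted p = 4.05e-04). Itgal, the alpha subunit of the lymphocyte integrin that binds Icam1, had no counts in MEF and 5.72 and 2.7 CPM in iPSC, at least 37.2-fold higher (adjusted p = 0.00103), where the bound takes 3 counts over both MEF libraries. Its usual partner Itgb2 reached at most 0.695 CPM in any library. Itgam, Itgae and Itgax also stayed under a mean of 5 CPM in every group. The exons of Itgam share 68.7% of their bases with another gene model on the same strand, so its low values are uncertain. Itgad had no counts in any library, which allows at most 0.113 CPM in MEF. The 10 leukocyte markers summed to 13.0 and 19.8 CPM in MEF, 207 to 492 in the sorted groups and 58.0 and 63.1 in iPSC. Laptm5, a lysosomal protein of blood cells, made up most of the sum outside MEF, at 31.8 and 34.6 CPM in iPSC. Cd68, a lysosomal protein of macrophages, stood at 1.76 and 0.698 CPM in MEF, at 5.17 and 3.64 in d6_Eff and at 11.3 and 11.9 in iPSC. Coro1a, an actin regulator of leukocytes, stood at 2.12 and 6.7 CPM in MEF, at 1.96 and 4.58 in d6_Eff and at 13.1 and 16.4 in iPSC. Both were called higher in iPSC than in MEF (adjusted p = 3.69e-04 and 0.0405) and than in d6_Eff (0.0409 and 0.0284), as Itgb7 and Itgal were. The sum of the 10 markers went the other way from d6_Eff, at 207 and 210.5 CPM, to iPSC, at 58.0 and 63.1. Of the 10 markers, 5 were at 0 counts in iPSC: Ptprc and Adgre1, which define leukocytes and macrophages, and Csf1r, Lyz2 and Tyrobp. The part of leukocyte transcripts in these values was not tested.

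Of the beta subunits outside the leukocyte family, Itgb1, Itgb3, Itgb5 and Itgb8 fell from MEF to iPSC and Itgb4 rose. Itgb1, the partner of most alpha subunits here, stood at 2756 and 1763 CPM in MEF, at 946 and 1003 in d3_Ineff, at 752 and 632 in d3_Eff, at 725 and 790.2 in d6_Ineff, at 358 and 299 in d6_Eff and at 174 and 162 in iPSC. The order went from MEF through d3_Ineff and the overlapping d3_Eff and d6_Ineff to d6_Eff, with iPSC lowest. It fell 13.5-fold from MEF to iPSC (log2 fold change -3.75 ± 0.26, adjusted p = 6.22e-07). Itgb5, a partner of the Itgav product, stood at 511 and 289 CPM in MEF, at 228 and 201 in d3_Ineff, at 174 and 176 in d3_Eff, at 347 and 327 in d6_Ineff, at 177 and 197 in d6_Eff and at 47.7 and 50.2 in iPSC, and fell 8.17-fold from MEF to iPSC (log2 fold change -3.03 ± 0.25, adjusted p = 2.53e-06). Itgb3, the other well-known partner of Itgav, stood at 79.1 and 58.2 CPM in MEF, at 11.9 and 8.42 in d3_Ineff, at 11.5 and 9.77 in d3_Eff, at 3.59 and 4.99 in d6_Ineff, at 4.59 and 1.47 in d6_Eff and at 4.04 and 5.4 in iPSC. Again MEF lay above all others (log2 fold change -3.87 ± 0.46, adjusted p = 3.87e-05). Itgb8, which with Itgav binds latent TGF-beta, stood at 12 and 10.1 CPM in MEF, at 5.73 and 3.26 in d3_Ineff, at 3.73 and 4.73 in d3_Eff, at 7.07 and 5.3 in d6_Ineff, at 5.92 and 4.76 in d6_Eff and at 0.344 and 0 in iPSC. It was near 0 in iPSC (log2 fold change -5.77 ± 0.74, adjusted p = 6.71e-05).

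Itgb4, the hemidesmosome beta subunit, was high in the sorted groups alone. It stood at 1.7 and 0.14 CPM in MEF, at 299 and 189 in d3_Ineff, at 196 and 196 in d3_Eff, at 351 and 370.1 in d6_Ineff, at 229.8 and 284 in d6_Eff and at 6.19 and 6.65 in iPSC. All 8 sorted libraries lay above both MEF and both iPSC libraries. From MEF to iPSC it rose 6.97-fold (log2 fold change 2.46 ± 0.48, adjusted p = 0.00122) while ending far under the sorted groups, and from d6_Eff to iPSC it fell 40.0-fold (log2 fold change -5.32 ± 0.43, adjusted p = 6.12e-06). With the iPSC and MEF libraries alone in the fit its adjusted p against MEF was 0.0858. The exons of Itgb4 share 7.66% of their bases with a noncoding RNA gene on the opposite strand. Itgb6, another epithelial subunit, had at most 0.401 CPM in any library.

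The laminin alpha chains, which carry the sites that integrins bind, changed places. Lama1, the chain of the earliest embryonic basement membrane, stood at 1.81 and 0.279 CPM in MEF, at 16.9 and 10.5 in d3_Ineff, at 11.4 and 14.9 in d3_Eff, at 29.3 and 23.6 in d6_Ineff, at 25.8 and 36.3 in d6_Eff and at 41.5 and 43.2 in iPSC. It was lowest in MEF and highest in iPSC, 40.6-fold apart (log2 fold change 5.08 ± 0.52, adjusted p = 1.09e-05). Lama4, a chain of vessels and mesenchyme, stood at 92.1 and 17.9 CPM in MEF, at 243 and 208 in d3_Ineff, at 304 and 242 in d3_Eff, at 377 and 465 in d6_Ineff, at 174 and 173 in d6_Eff and at 0.817 and 1.58 in iPSC. It was highest in d6_Ineff and fell 45.9-fold from MEF to iPSC (log2 fold change -5.58 ± 0.68, adjusted p = 4.47e-05). Lama2, the chain of muscle and mesenchyme, stood at 38.9 and 9.63 CPM in MEF, at 74.5 and 57.6 in d3_Ineff, at 39.9 and 18.7 in d3_Eff, at 30.1 and 33 in d6_Ineff, at 3.21 and 0.705 in d6_Eff and at 0.387 and 0 in iPSC, and fell 125-fold (log2 fold change -6.73 ± 1.02, adjusted p = 2.14e-04). Lama3, the epidermal chain, stood at 0.31 and 0 CPM in MEF, at 3.06 and 2.22 in d3_Ineff, at 1.26 and 0.26 in d3_Eff, at 6.37 and 9.69 in d6_Ineff, at 0.178 and 0.352 in d6_Eff and at 8.6 and 10.2 in iPSC. It was highest in iPSC and d6_Ineff, which overlapped, and rose 60.7-fold from MEF to iPSC (log2 fold change 5.46 ± 0.90, adjusted p = 4.04e-04). Lama5, the widespread chain of epithelia and stem cells, stood at 235 and 37.6 CPM in MEF, at 73.5 and 36.7 in d3_Ineff, at 44.6 and 38.8 in d3_Eff, at 219.8 and 234 in d6_Ineff, at 126 and 189 in d6_Eff and at 55.2 and 56.6 in iPSC. Its MEF libraries lay on both sides of iPSC, and it was not called (log2 fold change -1.30 ± 0.61, adjusted p = 0.0958). Without MEF replicate 2 it was called lower in iPSC (log2 fold change -2.13, adjusted p = 1.66e-04).

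Beta and gamma chains were less tied to a class. Lamb1 stood at 419 and 97.9 CPM in MEF, at 268 and 204 in d3_Ineff, at 224 and 203 in d3_Eff, at 389 and 384 in d6_Ineff, at 264 and 254 in d6_Eff and at 117 and 112 in iPSC, and Lamb2 at 194 and 31.1 CPM in MEF, at 218 and 151 in d3_Ineff, at 153 and 167 in d3_Eff, at 283 and 295 in d6_Ineff, at 67.8 and 74.2 in d6_Eff and at 17.5 and 21.9 in iPSC. Both had their lowest mean in iPSC, but the second MEF library of Lamb1 lay under iPSC and only Lamb2 was called (adjusted p = 0.0813 with the iPSC and MEF libraries alone in the fit; Lamb1 log2 fold change -1.18 ± 0.47, adjusted p = 0.0525, Lamb2 log2 fold change -2.53 ± 0.60, adjusted p = 0.00418). Without MEF replicate 2, Lamb1 was called as well (log2 fold change -1.93, adjusted p = 3.00e-08). Lamb3, the epidermal beta chain, stood at 0.929 and 0 CPM in MEF, at 5.73 and 5.11 in d3_Ineff, at 2.08 and 2.13 in d3_Eff, at 5.39 and 7.34 in d6_Ineff, at 2.9 and 3.76 in d6_Eff and at 1.63 and 2.96 in iPSC. Its rise to iPSC was at the threshold (adjusted p = 0.0499), and it was lost without any 1 library other than MEF replicate 1 (adjusted p from 0.0589 to 0.222). Lamc1, the gamma chain of most laminins, stood at 319 and 69.5 CPM in MEF, at 625 and 440.1 in d3_Ineff, at 583 and 393 in d3_Eff, at 776 and 913 in d6_Ineff, at 449 and 443 in d6_Eff and at 244 and 269 in iPSC, highest in d6_Ineff and not called between iPSC and MEF (adjusted p = 0.534). Without MEF replicate 1 it was called higher in iPSC (log2 fold change 1.90, adjusted p = 5.26e-06). Lamc3 had at most 1.12 CPM in any library.

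**Figure D3:**
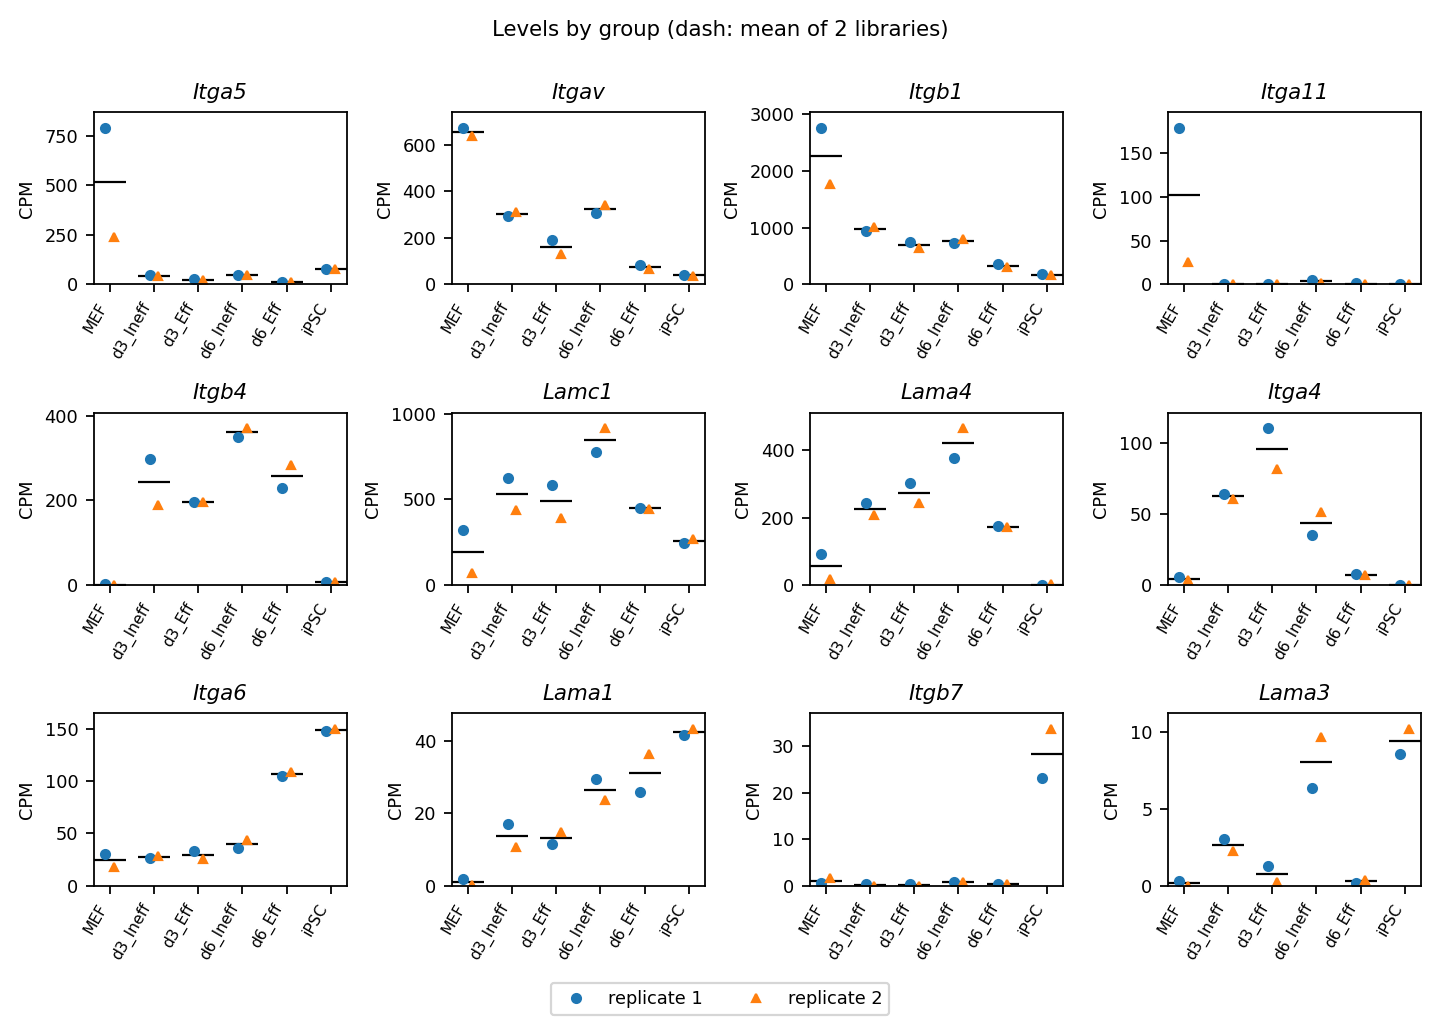
CPM by group for 12 members, with circles for replicate 1, triangles for replicate 2 and a dash for their mean; each axis starts at 0 and has its own range. Itga5, Itgav, Itgb1 and Itga11 are highest in MEF, Itgb4, Lamc1, Lama4 and Itga4 are highest in sorted groups, and Itga6, Lama1, Itgb7 and Lama3 are highest in iPSC.

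By day 3, most fibroblast integrins had fallen and Itgb4, Itga4 and the laminin chains Lama1 and Lama4 had risen, in both sorted groups. Against MEF, 7 members passed upward and 10 downward in d3_Ineff, where 30.0% of all genes were called (15.0% higher, 15.0% lower). The counts for d3_Eff were 5 upward and 11 downward, where 36.5% of all genes were called (18.0% higher, 18.6% lower). These comparisons share the MEF libraries with each other and with iPSC against MEF, so their values are set side by side only. Itgb4 rose 265-fold in d3_Ineff (log2 fold change 7.70 ± 0.51, adjusted p = 1.95e-06) and 213-fold in d3_Eff (log2 fold change 7.39 ± 0.51, adjusted p = 1.94e-06). These folds rest on MEF libraries of 33 counts and 1 count. Against MEF replicate 1 alone they were 143-fold and 115-fold, and against the 1 count of MEF replicate 2 they were 1747-fold (314 to 69013, the 95% Poisson interval of that count) and 1404-fold (252 to 55437). Itgb4 belongs to the hemidesmosome, and 7 keratinocyte markers beside it summed to 5.82 to 7.50 CPM on day 3, with Krt1, Ivl and Dsg3 at 0 counts. Itga4 rose 14.3-fold (log2 fold change 3.79 ± 0.36, adjusted p = 2.35e-05) and 22-fold (log2 fold change 4.42 ± 0.37, adjusted p = 6.70e-06). Lama1 rose 13.1-fold in d3_Ineff (log2 fold change 3.45 ± 0.50, adjusted p = 3.83e-04) and 12.6-fold in d3_Eff (log2 fold change 3.39 ± 0.50, adjusted p = 3.31e-04).

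Falls on day 3 took in the collagen and RGD receptors. Itga5 fell 11.8-fold in d3_Ineff (log2 fold change -3.56 ± 0.43, adjusted p = 1.10e-04) and 21.2-fold in d3_Eff (log2 fold change -4.41 ± 0.45, adjusted p = 2.42e-05), to levels under those of iPSC. Itgav fell 2.16-fold and 4.12-fold (adjusted p = 0.00227 and 3.33e-05), and Itgb1 2.32-fold and 3.27-fold (adjusted p = 0.00238 and 2.08e-04). With only MEF and d3_Ineff in the fit, 11 members were called in d3_Ineff beside 15.6% of all genes, and the adjusted p was 0.0597 for Itgav and 0.101 for Itgb1. Itga1, Itga11, Itga2b, Itga7, Itga8, Itgb3 and Itgb5 were also called lower in both. With only the groups compared in the fit, the adjusted p of Itgb5 became 0.15 in d3_Ineff and 0.0542 in d3_Eff. With library totals in place of TMM, it was 0.0856 for Itgb5 and 0.059 for Itga8 in d3_Ineff. Of the 10 fibroblast class members, 7 fell and 1, Lama4, rose in each day 3 group. Lama4 rose 4.11-fold (adjusted p = 0.015) and 4.97-fold (adjusted p = 0.00645); with only the groups compared in the fit these became 0.128 and 0.0532, and without d3_Ineff replicate 1 the first became 0.0572. Markers of endothelium, which makes Lama4, summed to 2.09 and 3.72 CPM in MEF and 116 to 161 on day 3. They summed to 153 and 158 CPM in d6_Ineff and 75.5 and 75.6 in d6_Eff. In iPSC, where Lama4 was lowest, they summed to 55.0 and 57.0 CPM, still above MEF. Emcn was at 0 counts in both day 3 groups and Pecam1 in d3_Ineff. The part of endothelial transcripts in the Lama4 result was not tested. Lama3 and Lamb3 rose in d3_Ineff (adjusted p = 0.0101 and 0.00893) and were not called in d3_Eff (0.146 and 0.0811 as adjusted p). The d3_Ineff calls were lost with only the groups compared in the fit (0.0686 and 0.0932). In d3_Eff both were higher without MEF replicate 1, at log2 fold changes of 6.93 and 8.37, where MEF replicate 2 had no counts of either. DESeq2 called Lamb3 higher in d3_Eff (adjusted p = 0.0328). In both d3_Ineff and d3_Eff, DESeq2 also called Lamc1 higher (adjusted p = 0.0166 and 0.0295). It called Itgb7 (0.0124 and 0.0338) and Itgb8 (0.0172 and 0.00789) lower in both. Lama5 was called lower in d3_Eff (adjusted p = 0.0487) although its libraries overlapped with MEF, and without MEF replicate 1 its log2 fold change was 0.17 (adjusted p = 0.761). The call was also lost without either d3_Eff library, either d6_Ineff library, d6_Eff replicate 2 or either iPSC library (adjusted p from 0.0501 to 0.211). Itgal had no counts in MEF against 1.66 and 2.08 CPM in d3_Ineff, at least 16.6-fold higher, and 0.737 and 0.832 in d3_Eff, at least 6.94-fold higher (adjusted p = 0.00563 and 0.0141). Without MEF replicate 1 the adjusted p of Itgal in d3_Eff was 0.0693. Leaving out d3_Ineff replicate 2 gave 0.0807 for Itga1 and 0.0897 for Itgb5 in d3_Ineff. Itga8 was lost there without either d3_Ineff library or MEF replicate 1 (0.103 to 0.177). Leaving out d3_Eff replicate 2 gave 0.11 for Itga1 in d3_Eff. Lamb1, the common beta chain, was not called in either group with all libraries and was higher without MEF replicate 1, by 1.28 in d3_Ineff and 1.14 in d3_Eff on the log2 scale (adjusted p = 1.80e-05 and 4.78e-05).

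Other folds and calls against MEF also moved with the MEF libraries. The rise to iPSC was 3.77-fold from MEF replicate 1 alone and 46-fold from MEF replicate 2 alone for Itgb4. For Lama1 it was 23.4-fold and 152-fold, where MEF replicate 2 held 2 counts. The counting intervals of the values from MEF replicate 2 were 8.26 to 1817 and 42 to 1252. In the same order of MEF libraries the fall was 10.1-fold and 3.08-fold for Itga5, 201-fold and 49.8-fold for Lama2, 76.8-fold and 14.9-fold for Lama4 and 9.84-fold and 1.58-fold for Lamb2. Itga7 was 41.1-fold lower than MEF replicate 2 alone, and Itgb7 45.8-fold higher than MEF replicate 1 alone. Lama3 had no counts in MEF replicate 2 and was 30.4-fold higher than MEF replicate 1. On the iPSC side, Itga4, Lama2 and Itgb8 had no counts in replicate 2, and the falls to replicate 1 alone were 25.5-fold, 62.7-fold and 32.1-fold. From d6_Eff to iPSC replicate 1 alone they were 41.2-fold for Itga4 and 15.5-fold for Itgb8. The fall of Itga7 was 39.9-fold to iPSC replicate 1 alone and 287-fold to the 3 counts of iPSC replicate 2 (interval 98.1 to 1389.6). The folds of these members kept their direction against each single library.

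On day 3, the fall of Itga5 was 18.1-fold from MEF replicate 1 and 5.53-fold from MEF replicate 2 in d3_Ineff. The corresponding falls to d3_Eff were 32.6-fold and 9.93-fold. For Lama4 the d3_Ineff mean lay 2.45-fold above MEF replicate 1 and 12.6-fold above MEF replicate 2, and the d3_Eff mean 2.97-fold and 15.3-fold. The rise of Lama1 from MEF replicate 1 was 7.56-fold in d3_Ineff and 7.26-fold in d3_Eff. Without MEF replicate 1, further members were called in d3_Ineff. Lamc1, Lama2, Lamb2, Itga3 and Itga6 were then higher, at log2 fold changes of 2.95, 2.79, 2.58, 2.28 and 0.62, and Itgb7 was lower, at -3.45. In d3_Eff, Lamc1, Lamb2, Itga3 and Itga6 were then higher, at 2.83, 2.38, 0.99 and 0.72, and Itgb7 lower, at -2.83. Without MEF replicate 2, Lama5, Itga9 and Lamb1 were called lower in d3_Ineff, at -2.16, -1.75 and -0.90, and Lamc1 higher, at 0.67. In d3_Eff, Itga9, Itgb8, Itga3 and Lamb1 were then lower, at -2.03, -1.62, -1.21 and -1.08. The edgeR adjusted p of these calls ran from 1.20e-07 to 0.0427. The direction of Itga3 in d3_Eff and of Lamb1 in both day 3 groups turned with the MEF library used.

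Between the populations of day 3, no member passed edgeR's test, in a comparison where 0.4% of all genes did (0.16% higher, 0.24% lower). At an unadjusted p under 0.05 there were 3, all lower in d3_Eff: Itga3, Itgav and Lama3. DESeq2 called 1, Itgav (adjusted p = 0.00121). The d3_Ineff and d3_Eff libraries of Itgav did not overlap, at 294 and 312 CPM against 189 and 129 (log2 fold change -0.93 ± 0.21, adjusted p = 0.101). The same held for Itga3, the laminin receptor subunit, at 77.7 and 61 CPM against 29.5 and 27.1 (log2 fold change -1.29 ± 0.47, adjusted p = 0.414). The count changed with the MEF libraries, which enter the shared fit: without MEF replicate 2 there were 4 members called, Itga3, Itga5, Itgav and Itgb1, all lower in d3_Eff, and 3.68% of all genes. Without MEF replicate 1 the first 3 of these were called, and 3.58% of all genes. The adjusted p of Itga3 was then 5.80e-04 and 5.24e-04, and that of Itgav 0.00323 and 0.00322. With only the day 3 libraries in the fit, 5 members were called, beside 5.21% of all genes. Groups did not overlap for 14 of the 32 members and for 40.3% of all genes.

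By day 6 the populations differed in many members, with fibroblast receptors lower and Itga6 higher in the EpCAM+ cells. Of 32 members, 1 was higher and 10 lower in d6_Eff than in d6_Ineff, and 14.6% of all genes were called (5.38% higher, 9.25% lower). The median of the members was -1.31 on the log2 scale, against 0.00 over all genes. Itga6 rose 2.68-fold (log2 fold change 1.42 ± 0.25, adjusted p = 0.00324). Itgb4, the partner of the Itga6 product in hemidesmosomes, was not called, at 229.8 and 284 CPM in d6_Eff against 351 and 370.1 in d6_Ineff (log2 fold change -0.49 ± 0.36, adjusted p = 0.412). It was called lower in d6_Eff without MEF replicate 1 (adjusted p = 0.0392), without MEF replicate 2 (0.04) and with only the groups compared (0.00999). Lama3, the epidermal alpha chain, fell 30.3-fold, to 0.178 and 0.352 CPM (log2 fold change -4.93 ± 0.84, adjusted p = 0.00286). Keratinocyte markers summed to 5.94 to 8.52 CPM in the day 6 libraries, with Krt5, Krt1, Ivl and Dsg3 at 0 counts, while 6 general epithelial markers summed to 1896 and 2028 CPM in d6_Eff and 113 and 115 in d6_Ineff.

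The 4 RGD receptor alpha subunits were all lower in d6_Eff. Itgav fell 4.4-fold (log2 fold change -2.14 ± 0.22, adjusted p = 1.77e-04) and Itga5 4.57-fold (log2 fold change -2.19 ± 0.42, adjusted p = 0.00533), and Itga8 fell 11.4-fold (log2 fold change -3.34 ± 0.88, adjusted p = 0.0273). Itga2b had 1 count in d6_Eff and 1.33 and 0.558 CPM in d6_Ineff (adjusted p = 0.0351). Itga4 fell 6.14-fold (log2 fold change -2.62 ± 0.34, adjusted p = 6.23e-04), Lama2 16.1-fold (log2 fold change -3.97 ± 0.79, adjusted p = 0.0068) and Lamb2 4.07-fold (log2 fold change -2.03 ± 0.58, adjusted p = 0.0386). To d6_Eff replicate 1 alone, Lama2 fell 9.83-fold and Itga8 5.68-fold, and to d6_Eff replicate 2 alone Lama2 fell 44.7-fold, where Itga8 had no counts. Of the beta subunits, Itgb1 fell 2.3-fold (log2 fold change -1.20 ± 0.23, adjusted p = 0.00583) and Itgb5 1.81-fold (log2 fold change -0.85 ± 0.23, adjusted p = 0.0324). Of 10 fibroblast class members, 6 fell and none rose by this test. Fibroblast markers moved with them, from 4929 and 5255 CPM in d6_Ineff to 460.3 and 699 in d6_Eff, and their part in the result was not tested.

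The count on day 6 depended on single libraries. Leaving out d6_Eff replicate 2, the one with more reads outside genes, left 5 members called, and leaving out either d6_Ineff library left 7. Without that d6_Eff library the adjusted p was 0.071 for Itgb1 and 0.0595 for Lama2. For Itga6 it was 0.0513 without d6_Ineff replicate 1. The calls of Itgb5, Lamb2 and Itga2b were each lost without any 1 of the 4 day 6 libraries (adjusted p from 0.0518 to 0.184). Itgb5 and Lamb2 were also lost without d3_Eff replicate 2, and Itgb5, Lamb2 and Itga2b without either iPSC library (adjusted p from 0.051 to 0.0617). Itga8 was lost without d6_Ineff replicate 2 (0.138) or d6_Eff replicate 2 (0.111). Itga4, Itga5, Itgav and Lama3 were called in every alternative run. With either MEF library left out, 17 members were called, beside 26.6% of all genes without MEF replicate 2 and 27.1% without MEF replicate 1. The groups of day 6 did not overlap for 24 members and for 62.4% of all genes.

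**Figure D4:**
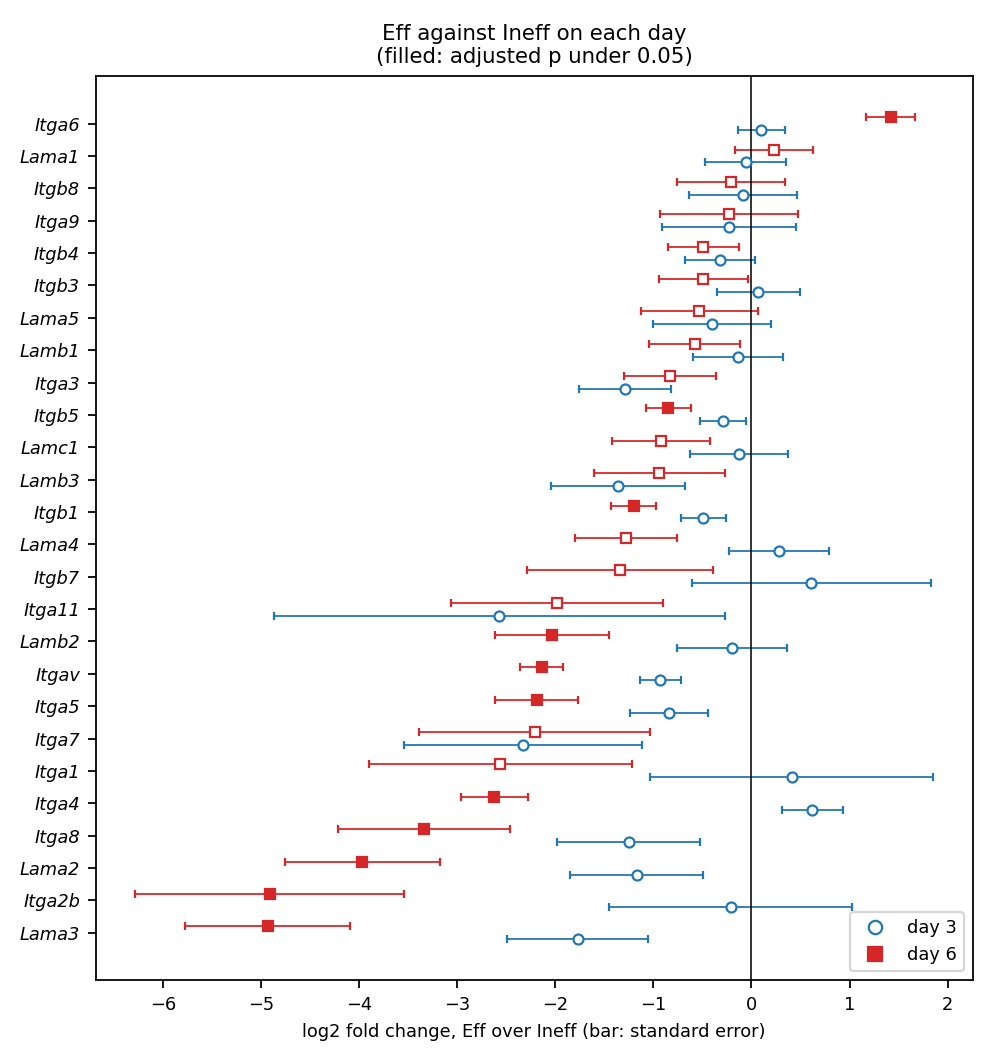
Log2 fold change of Eff over Ineff on day 3 (circles) and day 6 (squares) for the 26 members that reached a mean of 5 CPM in some group, with the standard error as bars, filled where adjusted p was under 0.05. All day 3 points are open, 11 day 6 points are filled, and Itga4 lies right of 0 on day 3 and left of it on day 6; the Itga2b value of day 6 rests on 1 count in d6_Eff.

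The difference of the Eff against Ineff contrasts between the days was tested for each member. Itga4 passed, being 1.54-fold higher in d3_Eff than in d3_Ineff and 6.14-fold lower in d6_Eff than in d6_Ineff (difference log2 fold change -3.24 ± 0.46, adjusted p = 0.0114). It was the 1 member of 32 called, beside 1.39% of all genes (0.296% higher, 1.09% lower). Its adjusted p was 0.062 without d3_Ineff replicate 1, 0.0764 without d3_Ineff replicate 2, 0.05 without d6_Ineff replicate 2 and 0.0655 without d6_Eff replicate 2. With MEF replicate 2 left out, 8 members were called: Itga4, Itga5, Itgav, Itgb1, Lama3, Lama4 and Lamb2 with a lower difference, and Itga6 with a higher one, beside 7.5% of all genes. There were 8 without MEF replicate 1 as well, beside 7.75% of all genes. Vcam1, a ligand of the Itga4 product, had 62.4 and 42.2 CPM in d3_Eff and 6.15 and 3 in d6_Eff.

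Groups of day 3 were gated on CD73 and Sca1 and those of day 6 on EpCAM and Sca1. Between the days, in Ineff and in Eff cells, the day and the gate cannot be told apart. From day 3 to day 6, edgeR called no member in the Ineff cells, beside 4.42% of all genes called (3.19% higher, 1.23% lower). At an unadjusted p under 0.05 there were 9, of which 8 were higher and 1, Itgb3, lower on day 6. DESeq2 called 2, Itgb5 and Lama5. With MEF replicate 2 left out, 11 members were called beside 14.7% of all genes, and 12 without MEF replicate 1 beside 15.0%. Among the 11 was Lama5, with 73.5 and 36.7 CPM on day 3 and 219.8 and 234 on day 6 (log2 fold change 2.03, adjusted p = 7.55e-04 without MEF replicate 2, and 2.04 with adjusted p = 0.0965 with all libraries).

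In the Eff cells, edgeR called 1 member higher and 5 lower on day 6 than on day 3. Itga6 rose 3.67-fold (log2 fold change 1.88 ± 0.25, adjusted p = 8.73e-04). Itga4 fell 13.6-fold (log2 fold change -3.76 ± 0.35, adjusted p = 1.14e-04), Lama2 15-fold (log2 fold change -3.86 ± 0.79, adjusted p = 0.01), Itgb3 3.52-fold (log2 fold change -1.79 ± 0.44, adjusted p = 0.0273), Itgav 2.16-fold (log2 fold change -1.11 ± 0.21, adjusted p = 0.0071) and Itgb1 2.1-fold (log2 fold change -1.07 ± 0.23, adjusted p = 0.0139). To d6_Eff replicate 1 and 2 alone, the fall was 9.14-fold and 41.6-fold for Lama2 and 2.32-fold and 7.26-fold for Itgb3. The 6 calls stand beside 9.11% of all genes called (4.24% higher, 4.87% lower). Without d3_Eff replicate 1 or d6_Eff replicate 2 the count was 2, with Itgav, Itgb1, Itgb3 and Lama2 no longer called (adjusted p from 0.0645 to 0.147); Itgb3 was also lost without d3_Eff replicate 2 (0.0858). Without either MEF library 12 were called, beside 16.5% of all genes without MEF replicate 2 and 17.0% without MEF replicate 1. Itga4 and Itga6 were called in every alternative run. Itgb4 was not called, at 196 and 196 CPM on day 3 and 229.8 and 284 on day 6 (log2 fold change 0.39 ± 0.36, adjusted p = 0.641). DESeq2 called 11 members in the Eff cells. Lama5 (log2 fold change 1.94, adjusted p = 0.0113) and Lama1 (1.27, adjusted p = 0.021) were then also higher on day 6. Itga5, Itga8 and Itgam were then also lower (DESeq2 adjusted p = 0.019, 0.026 and 0.0444). The rise of Lama5 was thus seen in both Ineff and Eff cells by DESeq2.

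The step from d6_Eff to iPSC took in a fall of the hemidesmosome subunit Itgb4. Of 32 members 5 were higher and 8 lower in iPSC, beside 29.6% of all genes (13.6% higher, 15.9% lower). Itgb4 fell as given above, Lama4 fell 145-fold (log2 fold change -7.22 ± 0.72, adjusted p = 2.40e-05) and Itgb8 fell 31.1-fold (log2 fold change -4.72 ± 0.73, adjusted p = 5.86e-04). Itga6, which shares the hemidesmosome with Itgb4, was not called, at 105 and 109 CPM in d6_Eff and 148 and 150.0 in iPSC (log2 fold change 0.48 ± 0.24, adjusted p = 0.168). It was called higher in iPSC without MEF replicate 1 (adjusted p = 0.0215), without MEF replicate 2 (0.0145) and with only the groups compared (9.12e-04). Lama3 rose 35.4-fold (log2 fold change 5.15 ± 0.84, adjusted p = 8.24e-04), Itga5 and Itgb7 rose as given above, and Itgal and Itga2b were called higher at low levels (adjusted p = 0.033 and 0.00848). Itga4 fell 82.5-fold (log2 fold change -6.03 ± 0.55, adjusted p = 1.27e-05), Itgb5 3.82-fold (log2 fold change -1.93 ± 0.24, adjusted p = 1.26e-04) and Lamb2 3.6-fold (log2 fold change -1.85 ± 0.58, adjusted p = 0.0339). Itgav and Itgb1 fell by less, 1.94-fold and 1.96-fold (adjusted p = 0.00591 and 0.0088). Without d6_Eff replicate 1 these 2 had an adjusted p of 0.0968 and 0.0888, without iPSC replicate 2 of 0.0619 and 0.0835, and Itgb1 of 0.0578 without iPSC replicate 1. The call of Lamb2 was lost without d3_Eff replicate 2 or any d6_Eff or iPSC library (adjusted p from 0.0523 to 0.172), that of Itgal without either d3_Ineff or iPSC library or d6_Eff replicate 1 (0.0504 to 0.218), and that of Itga2b without d6_Eff replicate 2 (0.0556). With either MEF library left out 21 members were called, beside 38.7% of all genes without MEF replicate 2 and 39.1% without MEF replicate 1.

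Levels between genes were compared as CPM per kb of exon, as shares of the sum over one chain or subunit type in each library. Among laminin alpha chains, Lama5 held 66.9% and 61.1% in the MEF libraries and 48.3% and 47.3% in iPSC, a large share at both ends. Lama4 held 24.7% and 27.4% in MEF, 76.7% and 76.6% in d3_Eff and 0.675% and 1.25% in iPSC. Lama1 held 0.604% and 0.534% in MEF, 9.41% and 10.8% in d6_Eff and 42.8% and 42.4% in iPSC. The alpha chain makeup thus went from Lama5 and Lama4 in MEF through Lama4 on day 3 to Lama5 and Lama1 in iPSC. The MEF libraries had these shares on alpha chain sums of 30.9 and 5.40 CPM per kb. Among beta chains, Lamb2 held 53.7% and 54.9% in d6_Ineff and 29.1% and 31.8% in d6_Eff, and Lamb3 at most 2.93% in any library.

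Among integrin beta subunits, Itgb1 held 80.9% and 82.3% in MEF and 51.1% and 43.1% in d6_Eff, and remained the largest in every library. Itgb4 held 0.0291% and 0.00379% in MEF, 19.1% and 23.8% in d6_Eff and 1.34% and 1.39% in iPSC, and Itgb7 12.6% and 17.9% in iPSC. Among integrin alpha subunits, Itga5 held 55.7% and 39% and Itgav 21.7% and 47.3% in MEF. In d3_Eff, Itgav held 43.4% and 38.3% and Itga4 19.4% and 18.8%. In d6_Eff the largest share was that of Itga6, at 43.8% and 48.1%, and in iPSC Itga6 held 36.5% and 37.4% and Itga5 34.9% and 36.2%. Shares describe the transcripts, and no test was run on them.

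**Figure D5:**
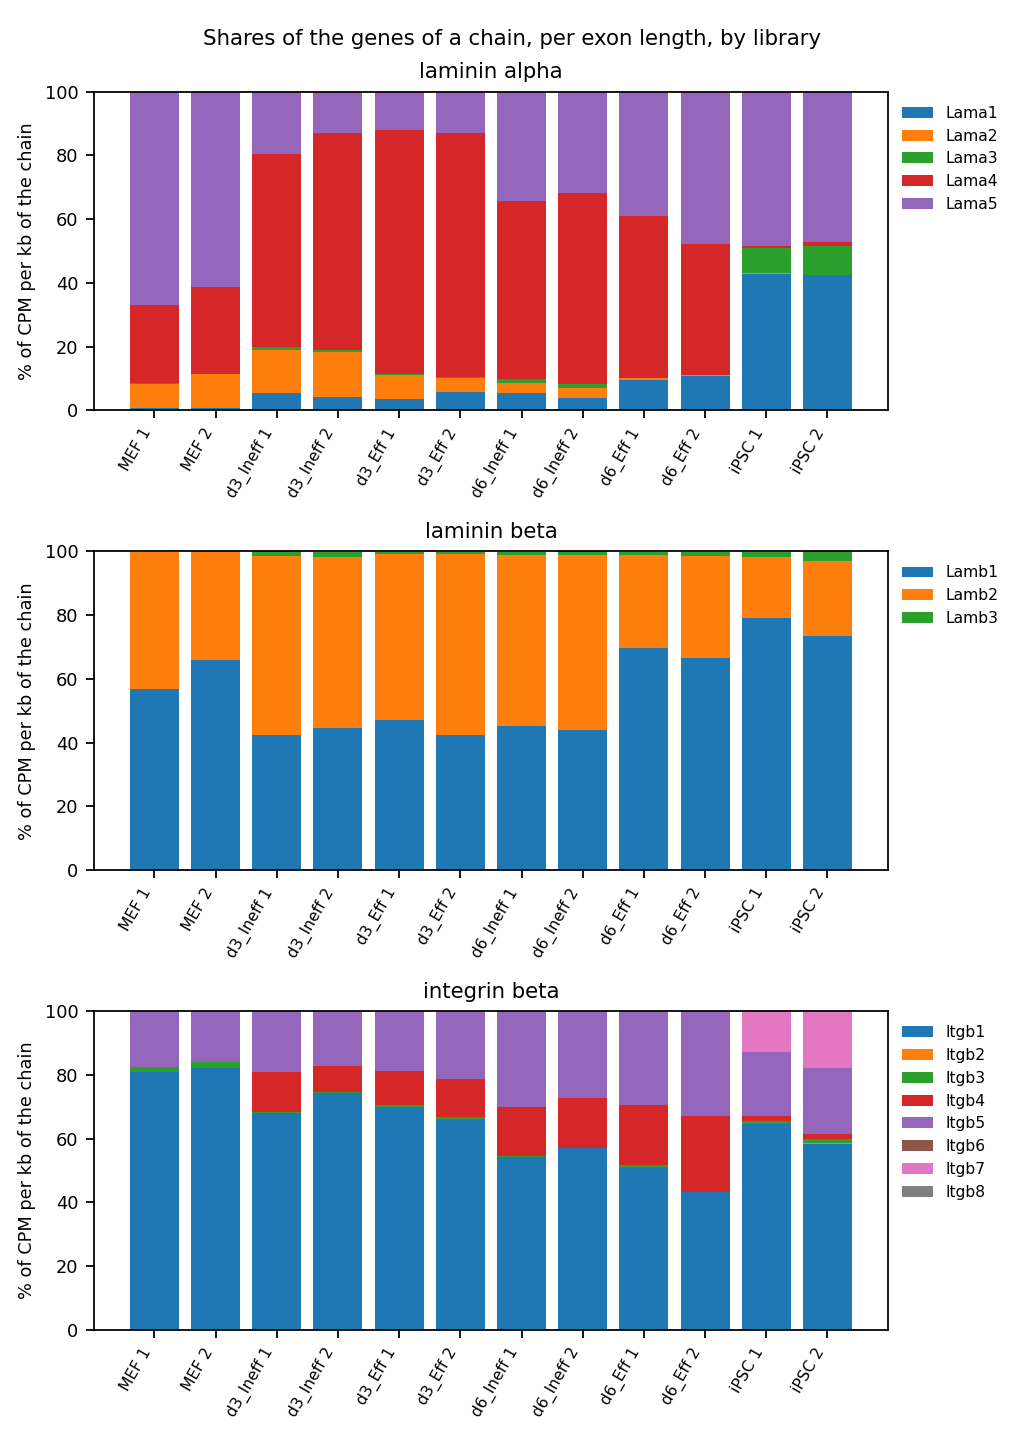
Share of CPM per kb of exon that each gene took of its chain or subunit type, in percent, for laminin alpha and beta chains and integrin beta subunits, with 1 bar per library. Lama4 makes up most of the alpha chains on day 3 and little in iPSC, and Itgb4 takes a visible share in the 8 sorted libraries.

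Genes that work with the members were counted from 4 lists. Of 30 genes of focal adhesions, the complexes that join integrins to actin, 2 were higher and 17 lower in iPSC than in MEF, with a median log2 fold change of -1.60. Over all genes tested, 52.7% were called in that comparison (26.0% higher, 26.7% lower). Zyx, a focal adhesion protein that responds to tension, stood at 424 and 233 CPM in MEF, at 70.7 and 82.5 in d6_Ineff, at 46.3 and 51.7 in d6_Eff and at 20.2 and 17.9 in iPSC (log2 fold change -4.11 ± 0.29, adjusted p = 7.79e-07). Tgfb1i1 stood at 236 and 116 CPM in MEF and at 1.16 and 0.857 in iPSC (log2 fold change -7.42 ± 0.48, adjusted p = 4.38e-07), and Lpp stood at 430.3 and 322 CPM in MEF and at 11.3 and 10.4 in iPSC (log2 fold change -5.12 ± 0.25, adjusted p = 7.36e-08). Against these, Parvb, which binds integrin-linked kinase, rose 2.61-fold (log2 fold change 1.36 ± 0.30, adjusted p = 0.00305), and Fermt1, the epithelial kindlin, had no counts in MEF and 2.92 and 1.32 CPM in iPSC, at least 18.8-fold higher. The list had 2 higher and 11 lower in d3_Ineff, 2 higher and 15 lower in d3_Eff, each against MEF, none called on day 3 between the populations, and 0 higher and 9 lower in d6_Eff against d6_Ineff. The shares of all genes called in these comparisons were, in that order, 30.0%, 36.5%, 0.4% and 14.6%. On day 6 Tgfb1i1 fell 10.6-fold (log2 fold change -3.38 ± 0.40, adjusted p = 3.90e-04) and Lpp 2.82-fold (log2 fold change -1.50 ± 0.21, adjusted p = 0.001).

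Of 18 ligands other than collagens and laminins, 15 were tested, of which 3 were higher and 12 lower in iPSC than in MEF (median -2.87). The share of all genes called there was 52.7% (26.0% higher, 26.7% lower). Thbs1, a matrix protein bound by several integrins, stood at 14101 and 6473 CPM in MEF and at 13.5 and 4.48 in iPSC (log2 fold change -10.15 ± 0.69, adjusted p = 6.05e-07), and Tnc, a ligand of the Itga9 product, at 1965 and 674 CPM in MEF, at 321 and 396 in d6_Ineff, at 30.2 and 15.7 in d6_Eff and at 0.258 and 0.329 in iPSC (log2 fold change -12.13 ± 0.78, adjusted p = 4.18e-07). Vcam1 had no counts in iPSC, at least 1699.5-fold lower than MEF. Those higher were ligands of leukocyte or epithelial integrins: Cdh1, which the Itgae product binds, at 0 and 0.14 CPM in MEF, at 43.4 and 42.6 in d6_Ineff, at 394 and 431 in d6_Eff and at 410.3 and 426 in iPSC, Icam1 at 3.56 and 0.558 CPM in MEF and at 65.9 and 76.5 in iPSC (log2 fold change 4.92 ± 0.94, adjusted p = 0.00109) and Madcam1, the ligand of the Itga4 and Itgb7 pair, at 4.9 and 6.59 CPM in iPSC with no counts in MEF (at least 50.8-fold). On day 6, Cdh1 was 9.6-fold higher in d6_Eff (log2 fold change 3.26 ± 0.25, adjusted p = 3.89e-05), Vcam1 7.14-fold lower (log2 fold change -2.82 ± 0.33, adjusted p = 5.55e-04) and Tnc 15.6-fold lower (log2 fold change -3.96 ± 0.51, adjusted p = 6.38e-04), within 1 higher and 7 lower of the 15. Of all genes, 14.6% were called between the day 6 populations (5.38% higher, 9.25% lower).

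Of 14 other basement membrane genes and laminin receptors, 13 were tested, with 2 higher and 8 lower in iPSC than in MEF (median -2.67), beside 52.7% of all genes called. Bcam, a receptor for laminins with the Lama5 chain, stood at 7.85 and 4.61 CPM in MEF, at 42.5 and 33.9 in d3_Ineff, at 19.2 and 24.7 in d3_Eff, at 53.2 and 50.9 in d6_Ineff, at 50.9 and 61.1 in d6_Eff and at 121 and 115 in iPSC. It rose 18.9-fold from MEF to iPSC (log2 fold change 4.20 ± 0.29, adjusted p = 6.16e-07), with the day 3 groups already above MEF. Nid2, which links laminin to collagen networks, rose 3.25-fold (log2 fold change 1.69 ± 0.52, adjusted p = 0.0179), while Sdc1 fell 6.36-fold (log2 fold change -2.67 ± 0.16, adjusted p = 3.17e-07) and Col4a5, a basement membrane collagen chain, 210.4-fold (log2 fold change -7.50 ± 0.84, adjusted p = 2.29e-05). Ntn4, a laminin-related protein that binds the laminin gamma chain, stood at 19.6 and 10.7 CPM in MEF, at 101 and 102 in d3_Ineff, at 54.4 and 48.1 in d3_Eff, at 57.2 and 75.9 in d6_Ineff, at 8.33 and 5.87 in d6_Eff and at 0 and 0.0659 in iPSC, and was 9.37-fold lower in d6_Eff than in d6_Ineff (log2 fold change -3.22 ± 0.34, adjusted p = 1.95e-04). Nid1 was also lower there (log2 fold change -2.37 ± 0.40, adjusted p = 0.00283), in a list with 0 higher and 4 lower on day 6, beside 14.6% of all genes called.

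Of 4 partners of Itga6 and Itgb4 in the hemidesmosome, none was higher and 2 were lower in iPSC than in MEF, and 1 was higher and 1 lower in d6_Eff than in d6_Ineff. The shares of all genes called in these 2 comparisons were 52.7% and 14.6%. Col17a1, its transmembrane collagen, stood at 0.619 and 0 CPM in MEF, at 2.54 and 2.4 in d3_Ineff, at 2.99 and 1.61 in d3_Eff, at 12.3 and 16.4 in d6_Ineff, at 46.8 and 73.5 in d6_Eff and at 0.215 and 0.461 in iPSC. It rose from day to day in both populations and was 4.19-fold higher in d6_Eff than in d6_Ineff (log2 fold change 2.06 ± 0.46, adjusted p = 0.0123), and 178-fold lower in iPSC than in d6_Eff (log2 fold change -7.53 ± 0.65, adjusted p = 8.62e-06). Plec, the linker to keratin filaments, stood at 634 and 162 CPM in MEF, at 128 and 113 in d6_Ineff, at 37.7 and 79.1 in d6_Eff and at 34.4 and 34.6 in iPSC, and fell 11.5-fold from MEF to iPSC (log2 fold change -3.53 ± 0.56, adjusted p = 3.23e-04). Cd151, a tetraspanin bound to laminin receptors, fell 1.81-fold (log2 fold change -0.85 ± 0.15, adjusted p = 6.93e-04) and was 1.51-fold lower in d6_Eff than in d6_Ineff (adjusted p = 0.0228). Primitive endoderm, which makes Lama1 and Lamc1 in the embryo, was covered by 7 markers that summed to 63.4 and 141 CPM in MEF, 1.06 to 40.1 in the sorted groups and 13.0 and 13.8 in iPSC. Dab2 and Pdgfra, which fibroblasts express too, made up most of the sum in MEF and were lower in iPSC, while Gata4, a defining marker, stood at 0.465 and 0 CPM in MEF, at 0.178 and 0 in d6_Eff and at 4.3 and 4.35 in iPSC and was called higher in iPSC than in MEF (adjusted p = 0.0437), as was Lama1. Sox17 and Foxa2 had no counts outside iPSC and at most 1.38 CPM there. The part of primitive endoderm in the Lama1 values was not tested.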

How the data were processed

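Raw counts per gene for 12 libraries, 2 in each of 6 groups, were used. Per the submitters' processing notes, the authors' deposited counts involved STAR 2.3.0, Picard 1.100 and HTSeq 0.6.0 and build mm9, with no parameters given; their gene annotation is not stated there. The kit marks strand, but the deposited count tables carry names that say they were made without strand, so reads of a member and of a gene on the opposite strand cannot be told apart. The 5 summary lines of each table, which name no gene, were kept out of library sizes; reads in no gene were 5.101% to 47.15% of reads, and reads in more than 1 gene 1.724% to 3.649%.

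Symbols and exon lengths came from GENCODE M21, which gave a symbol to 32860 of 37583 identifiers. Of the 37 genes that match the symbols, 1 is not reported here and is left out of every count of members. The members and all gene lists were chosen with earlier results of these data known. In R 4.3.3, edgeR 4.0.16 (filterByExpr, TMM, glmQLFit with robust estimation, all 12 libraries in 1 fit, 6 residual degrees of freedom) tested 16240 genes in 9 contrasts, adjusted by Benjamini-Hochberg over all genes, with a call at an adjusted p under 0.05. Folds are ratios of group mean CPM, while log2 fold changes are fitted with a prior count of 0.125, so the 2 can differ for low genes. The standard error is the fitted value divided by the root of F. Folds were also taken against each library of a group alone, with a 95% exact Poisson interval where that library held 1 to 3 counts. Where a group had no counts, a bound uses 3 counts over the group. All members with a group mean of 5 CPM or more are given per library, the others by their highest mean or value; from each list of partner genes, the called genes of smallest adjusted p were named, up to 3 in each direction for iPSC against MEF and up to 2 for Eff against Ineff. The fit was tested on simulated counts. Alternatives were DESeq2 1.42.0, other scalings and filters, fits of the compared groups alone, a replicate term, leaving out libraries and a prior count of 2.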

Additional observations from a re-analysis of the deposited data

Results flagged for a closer look

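The Eff against Ineff contrast of Itga4 differed between the days by a test of the difference itself: day 6 minus day 3 was -3.24 ± 0.46 on the log2 scale (SE, adjusted p = 0.0114 by edgeR's quasi-likelihood test). It was 64.2 and 60.7 CPM in d3_Ineff, 110.4 and 82.0 in d3_Eff, 35.5 and 51.5 in d6_Ineff and 7.48 and 6.7 in d6_Eff. The sort on day 3 used CD73 and Sca1 and that on day 6 EpCAM and Sca1, so the day and the gate cannot be told apart. Leaving out 1 library at a time gave values from -3.32 to -2.96 among the 4 fits in which the adjusted p rose to between 0.05 and 0.0764.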

How the results depend on the processing

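Of 85 member calls, 51 held in all 21 alternatives, 17 of them among the 21 of iPSC against MEF, and 34 were lost in at least 1. Of 203 member results not called, 87 were called in at least 1. The alternative with a prior count of 2 left all 288 member results the same. A prior count enters the fitted fold changes and not the test, so that alternative could not change a call. Without MEF replicate 1 the direction turned for Itga3 in iPSC (1.24, and -0.91 without MEF replicate 2) and d3_Eff (0.99 and -1.21) against MEF, for Lamb1 in d3_Ineff (1.28 and -0.90) and d3_Eff (1.14 and -1.08) and for Lama5 in d3_Eff (0.17 and -2.60), on the log2 scale. Members called on day 3 between the populations were 0 and became 1 with DESeq2, 5 without the filter on low counts, 5 with only the groups compared, 3 without MEF replicate 2 and d6_Eff replicate 2 together, and 0 to 4 without single libraries. In that order of settings the 11 of day 6 became 18 without the filter (12, 17 and 15 in the others) and 5 to 17 without single libraries. The 0 from day 3 to day 6 in Ineff became 2, 8, 13 and 14, 1 with the replicate block, and 0 to 12 without single libraries. The 6 in Eff became 11, 13, 11 and 11, and 2 to 12. The 13 of iPSC against d6_Eff became 20 without the filter and 22 with only the groups compared, and 9 to 21. The 17 of d3_Ineff against MEF became 11 with only the groups compared. The 1 difference between days became 3, 8, 8 and 6, and 0 to 8. The fits with 1 library in a group take its spread from the other groups and test more genes, and the causes of these shifts were not tested. The replicate number was checked as a pairing: deviations correlated from -0.101 to 0.213 over 15 pairs of groups, 2 of them above 0.1. These 2 were MEF with d3_Ineff (0.213) and MEF with d3_Eff (0.166). Such correlations cannot show if samples of the same number shared a culture, animal or batch. A replicate block gave 20 members called in iPSC, 19 in d3_Ineff and 16 in d3_Eff against MEF, 0 on day 3, 12 on day 6, 1 and 6 between days, 16 for iPSC against d6_Eff and 1 for the difference. Against TMM, library totals moved the median of all genes by 0.255 in iPSC against MEF, 0.22 and 0.218 in d3_Ineff and d3_Eff against MEF and 0.121 from d3_Ineff to d6_Ineff, upper-quartile scaling by at most 0.104, and DESeq2 by -0.074 to 0.061. Itgal, Itga10, Itgam, Itgae and Itgb2 rested on few counts.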
